A study of Sus scrofa with 16 samples.

Results

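Transcripts of 10 genes of blood coagulation were described in colonic mucosa and liver of pigs fed corn starch (CS) or raw potato starch (RPS): F3, F7, F9, F2, FGA, FGG, SERPINC1, F2R, VWF and ITGB3. A probe was taken when the scanner file gave the symbol of one of these genes as its gene name or, in brackets, in its description, and was not a control. This gave 18 of the 43603 probes of the array, or 10 of the 6824 genes that could be named on it. F7, F2 and FGA had 1 probe each, SERPINC1 had 3, and the other genes had 2 each. The genes had been picked with their diet difference in the colon in view. That difference is therefore given as a description, and only the liver and the contrast of colon with liver were tested.

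The animals were castrated male (barrow) Duroc × Landrace × Large White pigs, put on the diets at 70 d of age and killed at 170 d, after 100 d. The CS group ate a corn and soybean diet holding purified corn starch, and in the RPS group purified raw potato starch took the place of that starch, at 230 g/kg of feed and, from 120 d of age, at 280 g/kg. Each of the groups Colon_CS, Colon_RPS, Liver_CS and Liver_RPS was measured on 4 one-colour Agilent arrays, 1 per pig. The mucosa was scraped from the proximal colon, and both tissues are mixtures of cell types, so that fewer cells of a type and less RNA per cell cannot be told apart. The 4 arrays of a group shared 1 slide, so slide and group cannot be told apart either. A signal marked by the scanner software as well above background is called detected here. On a Colon_CS array 68.8% to 72.2% of probes were detected, on a Colon_RPS array 64.9% to 68.1%, on a Liver_CS array 61.1% to 65.9% and on a Liver_RPS array 62.6% to 64.0%. The median signal of an array, before normalization, was 56.3 to 70.8 in Colon_CS and 34.2 to 42.5 in Colon_RPS.

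Coagulation begins when tissue factor (F3), a membrane protein of cells outside the blood stream, binds factor VII (F7). The complex activates factor IX (F9) and factor X, and factor X turns prothrombin (F2) into thrombin. Thrombin cuts fibrinogen, whose chains include FGA and FGG, into fibrin, and antithrombin (SERPINC1) inhibits thrombin. Thrombin also signals to cells through the receptor F2R (PAR1), while von Willebrand factor (VWF) of endothelial cells and integrin beta 3 (ITGB3), the partner of ITGA2B on platelets and of ITGAV on other cells, serve platelet adhesion and aggregation. Hepatocytes are the main source of the soluble factors, of fibrinogen and of antithrombin.

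The probes are oligonucleotides of 60 bases. The F7 probe and both F2R probes are shown because the diet differences turned on them, and the F2R capitals mark the 43 bases that both probes share, so that they do not measure F2R independently. For ITGB3 the part of probe A_72_P762355 that recurs in a CYP24A1 probe is shown.
F7 A_72_P165196: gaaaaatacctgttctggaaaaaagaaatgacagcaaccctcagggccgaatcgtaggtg
F2R A_72_P444051: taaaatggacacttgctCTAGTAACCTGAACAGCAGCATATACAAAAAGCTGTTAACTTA
F2R A_72_P180436: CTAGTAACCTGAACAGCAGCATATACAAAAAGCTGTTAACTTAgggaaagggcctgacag
ITGB3 A_72_P762355, shared part: gttgccgtgagctgtggtgtaggttgcaga
The ITGB3 part is 30 bases long. Runs of at least 20 bases of that probe occur in 3 other probes of the array. The other 17 coagulation probes shared no run of that length with a probe of another gene. Of all 43603 probes, 3808 shared such a run with another probe, and 513 shared one with at least 3 others. A probe with bases in common with transcripts of other genes may also read those transcripts, which was not tested.

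The level in the colon relative to the liver was read first. Values are normalized signals on the log2 scale, with the 16 arrays normalized together. Of the 18 probes, 12 passed both thresholds (limma, Benjamini-Hochberg adjusted p under 0.05 over all probes and a fold change above 1.5), which is 66.7%, where 42.2% of all probes passed. Of these, 11 were lower in the colon, as were 18.7% of all probes, and 1 was higher, as were 23.4%. The median difference, colon minus liver, was -6.18 over the coagulation probes and 0.01 over all probes. All probes of F7, F9, F2, FGA, FGG and SERPINC1 were lower in the colon, with adjusted p between 1.97e-19 and 1.19e-07. None of the colonic and hepatic values of these probes overlapped.

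The fibrinogen chains were detected on every liver array and on no colonic array. FGA ranged from 15.94 to 17.46 over the 8 liver arrays, with a median of 16.81, and was detected on no colonic array. Its level was 16119-fold higher in the liver when colonic signals below the weakest detected signal of their array were set to that floor. The floor is no detection limit of a given probe, since an undetected probe can read above it. Folds given by this floor are therefore approximate and belong to the main processing. Over the alternatives tried, the difference of FGA, colon minus liver, was between -16.18 and -10.42. FGG ranged from 17.39 to 18.36 in the liver at probe A_72_P293239, with a median of 17.76, and was 34919-fold higher there by the same floor. The other FGG probe, also detected on no colonic array, gave 4233-fold by that floor. Over the alternatives the difference was between -16.98 and -11.19 at the former probe and between -13.45 and -8.43 at the latter.

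Prothrombin was detected in both tissues. F2 read 4.54 to 5.86 in colonic mucosa (median 4.85) and 16.64 to 17.14 in liver (median 17.06), and was detected on all 16 arrays. The difference of -11.99 ± 0.18 (SE) corresponded to 4061-fold (limma, adjusted p = 4.14e-16). SERPINC1 probe A_72_P579552 was also detected on every array, ranging from 5.63 to 6.30 in colonic mucosa and from 18.27 to 18.44 in liver, and was 5436-fold lower in the colon. The other probes of SERPINC1 were detected on no colonic array, and were 6828-fold and 3634-fold higher in the liver by the floor described above. Over the alternatives their differences were between -13.95 and -9.11 and between -13.60 and -8.21. The transcript of SERPINC1 was thus detected in the mucosa at its brightest probe only. The other probes also read lower in the liver, with means of 15.45 and 14.54 against 18.37.

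F9 was detected on all liver arrays and on few colonic ones. Probe A_72_P306238 was detected on no colonic array and was 1658-fold higher in the liver by the same floor, reading 13.06 to 13.56 there. Over the alternatives its difference was between -12.75 and -7.21. Probe A_72_P467035 was detected on 1 array of each colonic group, Colon_CS replicate 4 (4.57) and Colon_RPS replicate 3 (5.86), while the other 6 colonic arrays read 0.97 to 1.55. On the arrays where this probe was high, the other F9 probe was not detected.

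Of the 10 genes, F7 showed the smallest tissue difference among the soluble factors, fibrinogen and antithrombin. It ranged from 1.20 to 5.12 in the colon, with a median of 3.39, and from 6.57 to 7.24 in the liver, with a median of 6.97. The mean colonic level was 14.9-fold lower (log2 difference -3.90 ± 0.31, SE, limma, adjusted p = 9.80e-08), and the highest colonic array lay below the lowest liver array. With the CS arrays alone the difference was -5.16, and with the RPS arrays alone -2.64. F7 was detected on 1 of 4 Colon_CS arrays and 4 of 4 Colon_RPS arrays. The mean over both diets and that of CS thus rest partly on undetected signals, and their folds are uncertain. The values of either diet alone are descriptive, since the colonic diet difference had picked the gene. With normexp background correction it was -1.13, so its size depended on how the background was removed.

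The receptor and tissue factor did not pass the tissue test. F2R probe A_72_P444051 ranged from 6.81 to 9.38 in the colon, with a median of 8.71, and from 7.87 to 9.29 in the liver, with a median of 8.93 (log2 difference -0.41 ± 0.29, SE, limma, adjusted p = 0.259). The colonic values covered the whole liver range. Without Colon_CS replicate 3 both F2R probes passed, at -0.64 (adjusted p = 0.0203) and -0.63 (adjusted p = 0.0280). With the CS arrays alone the difference of probe A_72_P444051 was -0.79, and with the RPS arrays alone it was -0.03. F3 probe A_72_P177461 ranged from 6.09 to 7.55 in the colon and from 5.65 to 7.00 in the liver (0.46 ± 0.21, adjusted p = 0.0802), and the other F3 probe differed by 0.20 (adjusted p = 0.544). With the CS arrays alone the difference of the former F3 probe was 0.92, and with the RPS arrays alone it was 0.0014. The colonic diet difference had picked these genes. The F2R and F3 values of either diet alone and the F2R values without Colon_CS replicate 3 are therefore descriptive. No test is read from them.

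VWF was the one member that passed the tissue test as higher in the colon, at 1 of its probes. Probe A_72_P293294 ranged from 9.27 to 10.62 in the colon, with a median of 10.20, and from 7.56 to 9.20 in the liver, with a median of 8.38, and the tissues did not overlap. The difference of 1.72 ± 0.22 (SE) corresponded to 3.30-fold (limma, adjusted p = 1.24e-05). The other VWF probe, detected on 9 of the 16 arrays, read 2.70 to 4.03 and differed by -0.17 (adjusted p = 0.445). ITGB3 probe A_72_P223672 was lower in the colon, reading 8.31 to 9.31 there against 8.94 to 10.15 in the liver (-0.90 ± 0.17, SE, adjusted p = 0.000477), with overlapping ranges. ITGB3 probe A_72_P762355, the one with the recurring run, lay between 18.88 and 19.14 on all 16 arrays (0.05, adjusted p = 0.461). Several arrays held the same value at this probe, as quantile normalization gives to equal ranks, and with scaling to the 75th percentile its difference was -0.44 (adjusted p = 0.00138), so nothing is read from it.

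**Figure D1:**
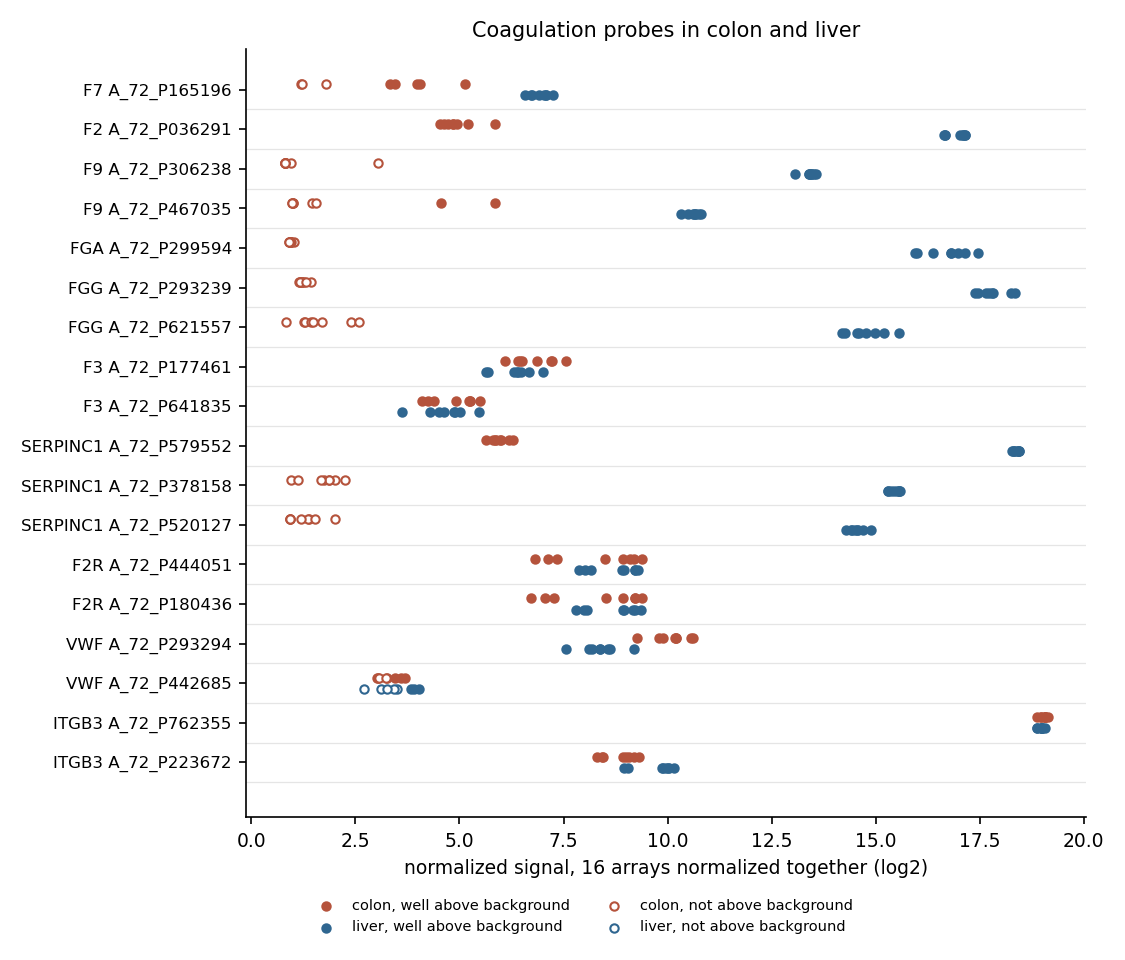
Normalized signal (log2, x axis) of each of the 18 coagulation probes on the 8 colonic and 8 liver arrays, 1 point per array, open where the probe was not detected. The probes of F7, F9, F2, FGA, FGG and SERPINC1 lie apart in the tissues, whereas F3 and F2R overlap; levels of different probes are not comparable.

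Between the diets in the colon, where the arrays of that tissue were normalized together, 6 of the 18 probes differed by more than 1.5-fold, which is 33.3%, where 12.7% of all probes did. With RPS, 4 were higher (both of F2R, that of F7 and 1 of F9) and 2 were lower (1 of F3 and 1 of ITGB3). The F9 probe among them was detected on none of the 8 arrays, so that 5 of the 6 had a detected signal. By direction, 5.9% of all probes were past this fold upwards and 6.83% downwards. The median difference, RPS minus CS, was 0.12 over the coagulation probes and 0.01 over all probes. The groups did not overlap at 2 of the 18 probes, those of ITGB3 (A_72_P223672) and of FGA, the latter not detected, and at 6.52% of all probes. These genes were picked from this contrast, and nothing is read from the counts.

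F2R, the thrombin receptor, was higher with RPS on most arrays. Probe A_72_P444051 read 7.58, 7.35, 9.12 and 7.05 on Colon_CS replicates 1 to 4 and 9.56, 8.70, 9.28 and 9.39 on Colon_RPS replicates 1 to 4. CS replicates 1, 2 and 4 lay below every RPS array, whereas CS replicate 3 lay within the RPS range, so that the groups overlapped. The mean difference was 1.46 ± 0.46 (SE), or 2.75-fold. The overlapping probe A_72_P180436 gave 1.56 ± 0.47, or 2.95-fold, with the arrays in nearly the same order. Without CS replicate 3 the differences were 1.92 and 2.04.

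Colon_CS replicate 3 and Colon_RPS replicate 2 stood apart in markers of the epithelium. The summed signal of the 10 measured markers (brightest in the colon LGALS4) was 18.04 on that array and 19.52 to 19.70 on the other CS arrays, on the log2 scale, and 18.62 on Colon_RPS replicate 2 and 19.59 to 19.87 on the other RPS arrays, with all 10 detected on every colonic array. Of these arrays, the former was the highest of its diet in F2R and the latter the lowest of its own. The part of this in the F2R values was not tested.

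F7 was higher with RPS in the colon, near the limit of detection. It read 2.08, 1.23, 3.74 and 1.25 on Colon_CS replicates 1 to 4 and 4.34, 3.62, 4.27 and 5.39 on Colon_RPS replicates 1 to 4. It was detected on 1 of 4 CS arrays, replicate 3, and on 4 of 4 RPS arrays. CS replicate 3 lay above RPS replicate 2, so the groups overlapped at those arrays alone. Those arrays also stood apart in the epithelial markers, and the part of this in the F7 values was not tested. The mean difference was 2.33 ± 0.63 (SE), or 5.02-fold, against a CS mean that rests on 3 undetected signals, so the fold is uncertain. It was 0.32 with normexp background correction, where both F2R probes (1.09 and 1.20) lay farther from 0.

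Markers of hepatocytes, the main cells that make F7, were followed in the mucosa as well. Of the 11 measured markers, 6 or 7 were detected on a colonic array, and TTR and CYP2E1 on none. The brightest in the colon was APOA2, and in the liver HP. The summed signal of the 11 was 10.84, 10.43, 10.17 and 10.54 on Colon_CS replicates 1 to 4 and 10.96, 10.38, 10.66 and 11.23 on Colon_RPS replicates 1 to 4, against 21.25 to 21.35 on the liver arrays. The array highest in F7, RPS replicate 4, was also highest in this sum, while CS replicate 3, the highest CS array in F7, was lowest. ALB (0.67), AMBP (1.11) and SERPINA1 (1.22) were past 1.5-fold upwards with RPS, 3 of 11 where 5.9% of all probes were, and none of the 11 downwards. By sign, 6 of the 11 were higher and 5 lower, with a median difference of 0.17. APOA1 (0.17), TF (0.18), APOA2 (-0.07) and HP (-0.12), each detected on every colonic array, were under the fold threshold. AMBP was detected on 1 of the 8 colonic arrays and ALB on 2 of the 4 CS arrays, and the standard error of SERPINA1 was 1.01. The part of these markers and of the dimmer RPS arrays in the F7 difference was not tested.

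**Figure D2:**
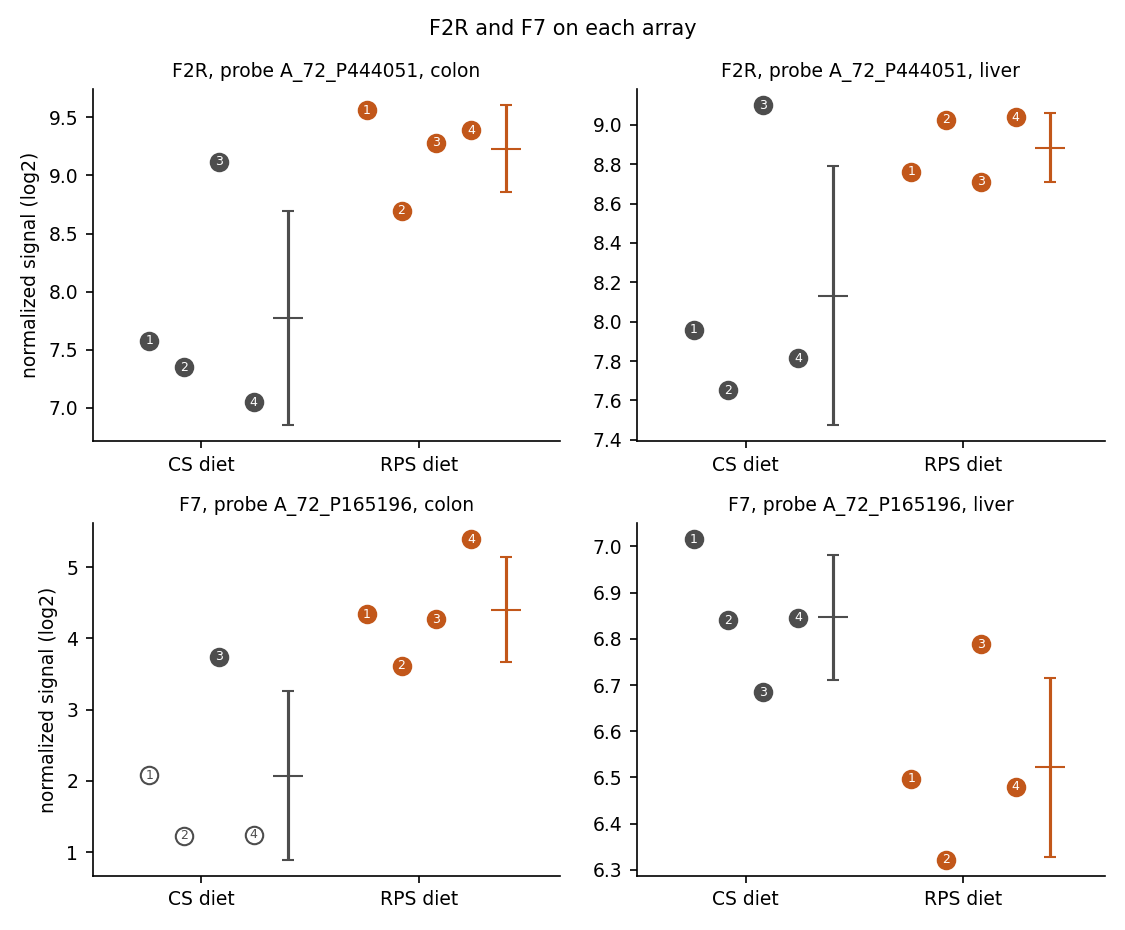
Normalized signal (log2) of F2R and F7 on each array, numbered by replicate, with the mean and SD of each group beside the points; open circles were not detected. Replicate 3 of the CS diet lies with the RPS arrays for F2R in the colon (9.12) and in the liver (9.10) and for F7 in the colon (3.74).

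Of F3 and ITGB3, 1 probe each was lower with RPS in the colon, both just past the fold. F3 probe A_72_P177461 read 7.42, 7.45, 6.75 and 7.77 with CS and 6.66, 6.34, 7.10 and 6.69 with RPS. Here, too, CS replicate 3 was the array of its group nearest to the other diet. The difference was -0.65 ± 0.25 (SE), or 1.57-fold, and at the other F3 probe it was -0.46 ± 0.34, under the fold threshold. ITGB3 probe A_72_P223672 read 9.26, 9.50, 9.20 and 9.38 with CS and 9.12, 8.65, 8.64 and 8.51 with RPS, so that each RPS array lay below each CS array (-0.61 ± 0.15, SE, or 1.52-fold). The recurring ITGB3 probe differed by 0.11, and by 0.59, past the fold upwards, with scaling to the 75th percentile. With normexp correction both F3 (-0.43) and ITGB3 (-0.57) were under the fold threshold. F3 was also under it without Colon_CS replicate 4 (-0.51) or Colon_RPS replicate 2 (-0.53), and ITGB3 without Colon_CS replicate 2 (-0.55) or without RPS replicate 2, 3 or 4 (-0.58, -0.58 and -0.53).

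Of the macrophage markers, the 3 subunits of C1q were lower with RPS, as F3 and ITGB3 were. The summed signal of all 5 markers (brightest C1QB) was 15.11 to 15.37 in Colon_CS and 13.37 to 14.70 in Colon_RPS. C1QA (-0.88), C1QB (-1.27) and C1QC (-1.30) were past 1.5-fold, 3 of 5 where 6.83% of all probes were lower by as much, and CD163 (-0.30) and CD14 (0.0013) were not. Of 6 fibroblast markers, COL1A2 (-0.72) and PDGFRB (-0.66) were past it too, and of 5 smooth muscle markers none was, against the same 6.83%. The summed signal of the smooth muscle markers (brightest ACTA2) was 15.15 to 15.35 with CS and 14.57 to 15.07 with RPS, without overlap. The summed signal of the 6 platelet markers (brightest in the colon GP9) was 9.42 to 9.70 with CS and 9.63 to 9.93 with RPS, and TUBB1 was detected on no array. The part of these cells in the F3 and ITGB3 differences was not tested.

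The other members differed little in the colon or were near background. VWF, at probe A_72_P293294, read 10.37, 10.35, 9.97 and 10.07 with CS and 9.46, 10.37, 10.77 and 10.73 with RPS, and RPS replicate 1 was the lowest and RPS replicate 3 the highest of all 8 arrays (0.14 ± 0.30, SE). F2 differed by 0.04 ± 0.30, with 5.01 to 5.47 in CS and 4.81 to 6.12 in RPS. SERPINC1 probe A_72_P579552 differed by -0.12 ± 0.16. F9 probe A_72_P306238, 1.51-fold higher with RPS, was past the fold through RPS replicate 4 alone (3.34), as the other 7 arrays read 0.78 to 0.92 and the difference without that array was -0.05. This F9 probe, FGA, both FGG probes and the other SERPINC1 probes were detected on no colonic array, so their differences have no meaning as levels.

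**Figure D3:**
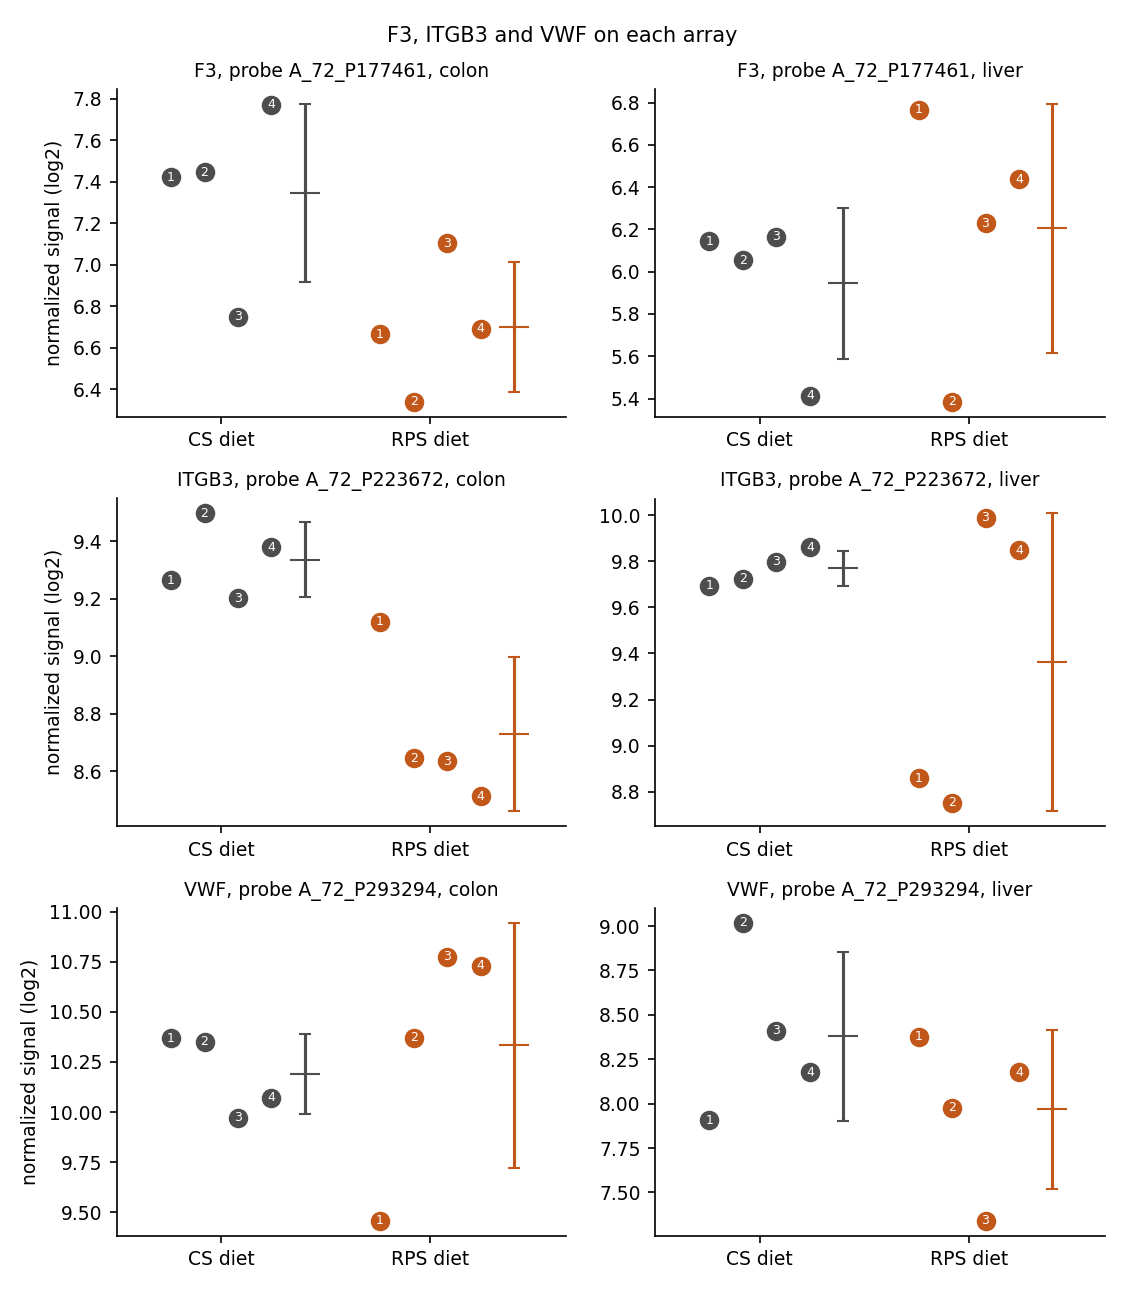
Normalized signal (log2) of F3, ITGB3 and VWF on each array, numbered by replicate, with the mean and SD of each group beside the points. ITGB3 (probe A_72_P223672) is the one of these in which the colonic diet groups do not overlap (8.51 to 9.12 with RPS, 9.20 to 9.50 with CS); in the liver all 3 overlap.

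Between the diets in the liver, 1 of the 18 probes passed both thresholds (limma, a fold change above 1.5 with an unadjusted p under 0.05), which is 5.56%, where 3.56% of all probes did. This was F2R probe A_72_P444051, and 1.8% of all probes passed upwards. After Benjamini-Hochberg adjustment over all probes, 0 of the 18 were under 0.05 in limma, where 0.00229% of all probes (1 probe) were. With the methods' t-test 0 of the 18 were, and 1 of all probes. At an unadjusted p under 0.05, limma gave 2 of the 18, and 7.59% of all probes. The methods' t-test gave 1 of the 18, and 2899 of all 43603 probes. The median difference was -0.06 over the coagulation probes and -0.0038 over all probes. No coagulation probe separated the diet groups without overlap, as 4.45% of all probes did.

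F2R read 7.96, 7.65, 9.10 and 7.82 on Liver_CS replicates 1 to 4 and 8.76, 9.03, 8.71 and 9.04 on Liver_RPS replicates 1 to 4 at probe A_72_P444051. As in the colon, CS replicates 1, 2 and 4 lay below every RPS array and CS replicate 3 did not, being the highest of all 8. The labels do not say that the same number in colon and liver is the same pig. The difference was 0.75 ± 0.31 (SE), or 1.69-fold (limma, p = 0.0448, adjusted p = 0.639; exact two-sided permutation test, p = 0.143). The overlapping probe A_72_P180436 gave 0.78 ± 0.34 (limma, p = 0.0526, adjusted p = 0.662; exact two-sided permutation test, p = 0.143). The call of A_72_P444051 held without CS replicate 3, where both probes passed (1.08 and 1.14), and was lost without each one of the other 7 liver arrays, with differences of 0.59 to 0.81. It was lost too with the methods' t-test (unadjusted p = 0.0689) and with the replicate number as a block (unadjusted p = 0.0849). With normexp correction this probe was under the fold threshold (0.58), and A_72_P180436 passed in its place (0.61).

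F7 was slightly lower with RPS in the liver, opposite to the colon. It read 7.02, 6.84, 6.68 and 6.85 with CS and 6.50, 6.32, 6.79 and 6.48 with RPS. The RPS arrays lay below all CS arrays except replicate 3, which lay above CS replicate 3. The difference was -0.32 ± 0.12 (SE), or 1.25-fold (limma, p = 0.0310, adjusted p = 0.60; exact two-sided permutation test, p = 0.0571), under the fold threshold. The unadjusted p in limma was above 0.05 with the replicate number as a block (0.0822), with normexp correction (0.0684, difference -0.16), and without any 1 of replicates 1, 2 and 4 of either diet (0.0552 to 0.0805). F10, the gene next to F7 in the pig genome (order of RefSeq, Sscrofa11.1), differed by -0.28 in the liver (adjusted p = 0.547) and by 0.04 in the colon.

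Fibrinogen varied more between pigs than between diets. FGA read 16.39, 17.13, 16.80 and 16.03 with CS and 16.82, 17.44, 15.98 and 16.98 with RPS (0.22 ± 0.35, SE, adjusted p = 0.923). FGG read 17.66, 18.43, 17.82 and 17.37 with CS and 17.73, 18.32, 17.46 and 17.83 with RPS (0.02 ± 0.27, adjusted p = 0.999). The arrays high in FGA were those high in FGG, whose gene lies beside it. Over the 8 liver arrays Pearson's r was 0.902 (exact two-sided permutation test, p = 0.00124) and Spearman's rho 0.929 (exact p = 0.00223), and without the 2 arrays farthest from the median of FGA r was 0.830 (n = 6). After each diet's mean was subtracted, r was 0.921. All 45 pairs of the 10 genes were computed, and with adjustment over them the p of this pair was 0.0558 and that of 0 pairs was under 0.05.

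**Figure D4:**
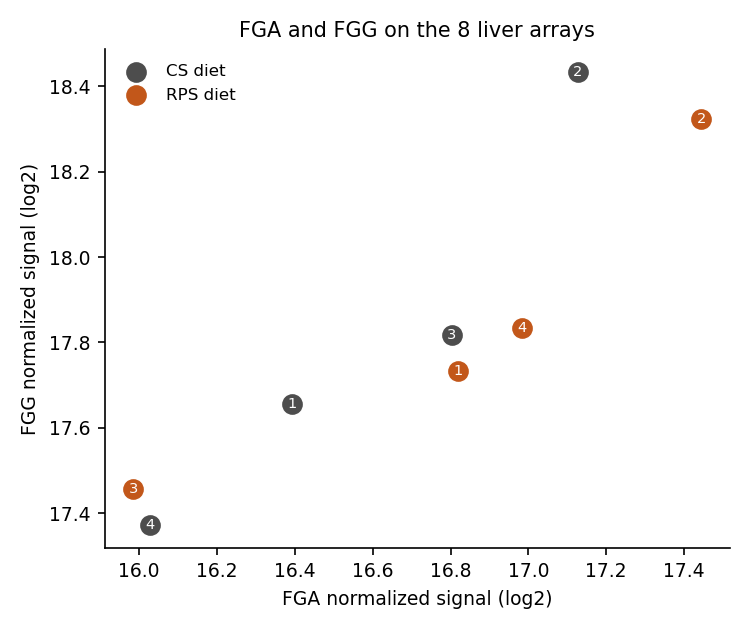
Normalized signal (log2) of FGG (probe A_72_P293239, y axis) against FGA (x axis) on the 8 liver arrays, numbered by replicate and coloured by diet. Both diets span the range, with replicate 2 of each diet highest in FGG (18.43 and 18.32).

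The remaining members showed no diet difference past the thresholds in the liver. ITGB3 probe A_72_P223672 read 9.69, 9.73, 9.80 and 9.86 with CS and 8.86, 8.75, 9.99 and 9.85 with RPS, so that RPS replicates 1 and 2 lay below all others and replicates 3 and 4 did not (-0.41 ± 0.30, SE, adjusted p = 0.823). VWF ranged from 7.91 to 9.02 with CS and from 7.34 to 8.38 with RPS (-0.41 ± 0.30, adjusted p = 0.822). F3 ranged from 5.41 to 6.16 with CS and from 5.38 to 6.77 with RPS (0.26 ± 0.32, adjusted p = 0.884). F2 (-0.11), SERPINC1 (-0.07 to -0.20 over its probes) and F9 (-0.16 and 0.0032) differed by at most 1.15-fold.

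**Figure D5:**
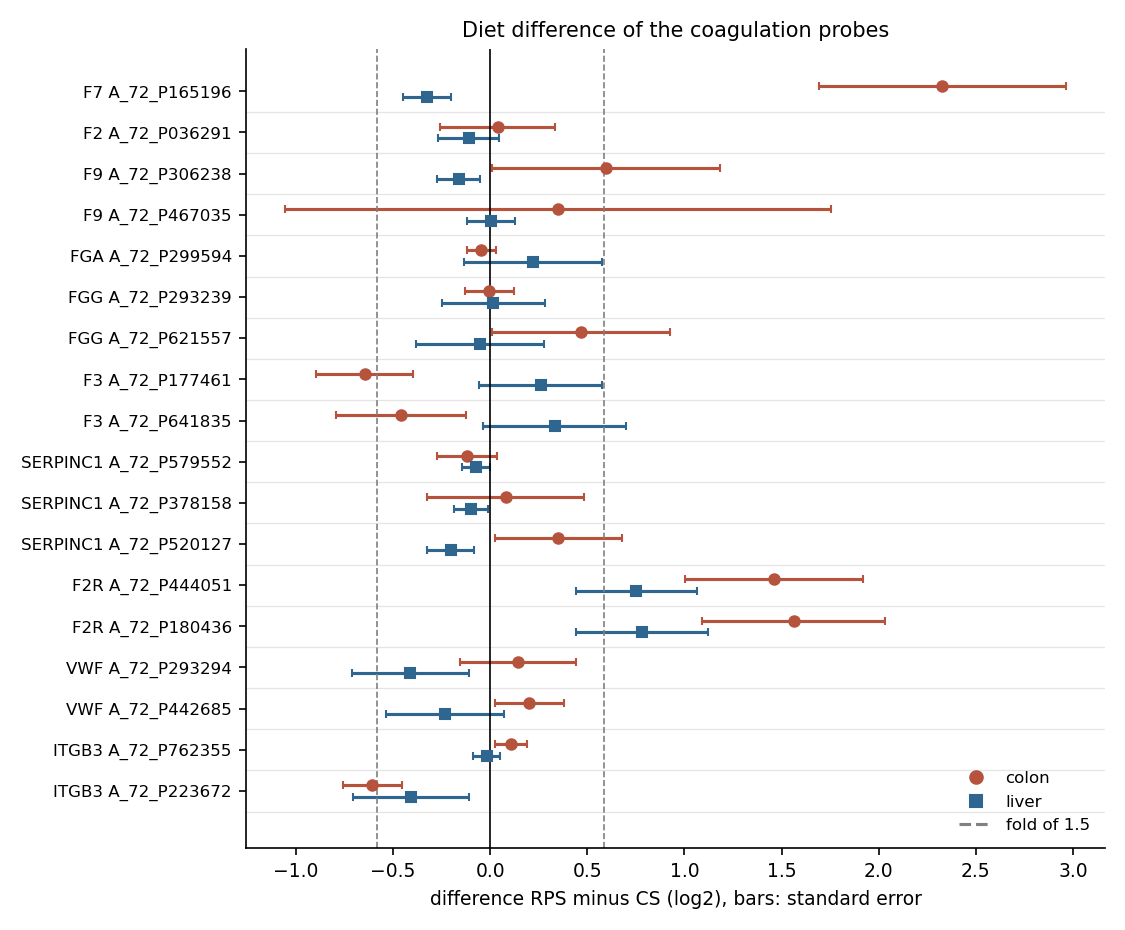
Difference between the diets, RPS minus CS (log2, x axis), of the 18 coagulation probes in colon and liver, with the standard error of the fit and dashed lines at a fold of 1.5. In the colon, F7 (2.33) and both F2R probes (1.46 and 1.56) lie farthest to the right; in the liver the F2R probes (0.75 and 0.78) are the only ones past 1.5-fold.

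Other genes of coagulation were read at the brightest probe of each. Of 49 listed genes, 28 were named among the probes, in lists of factors (6), anticoagulants (7), fibrinolysis (7), receptors and platelet adhesion (7) and the vitamin K cycle (1). In the colon, 5 of the 28 (17.9%) were past 1.5-fold between the diets, near the 12.7% of all probes. With RPS, the anticoagulant protease PROC (0.94 ± 0.56, SE), plasminogen PLG (1.05 ± 0.61) and the collagen receptor subunit ITGA2 (0.59 ± 0.35) were higher, and F5 (-0.96 ± 1.03) and heparin cofactor SERPIND1 (-0.90 ± 0.44) were lower. PLG and SERPIND1 were detected on 1 of the 8 colonic arrays each. In all 5 the diet groups overlapped. F8, the factor that VWF carries in plasma, was under the fold threshold (0.57 ± 0.11, SE), but its RPS arrays (10.09 to 10.36) all lay above its CS arrays (9.51 to 9.79). F8 and KLKB1, the latter undetected in the colon, were the 2 of the 28 whose diet groups did not overlap, as did not 6.52% of all probes. F8 was named after its values were seen.

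In the liver, 0 of the 28 passed both thresholds in limma, where 3.56% of all probes did. With the methods' t-test 0 passed, where 2.63% of all probes did. At an unadjusted p under 0.05, limma gave 7.59% of all probes and the methods' t-test 2899 of 43603. Of the 28, 4 were under it by either test, with differences of -0.28 (F10), -0.29 (PROC), 0.45 (PROCR) and 0.33 (TFPI). PROCR is the endothelial protein C receptor, and TFPI the inhibitor of the F3 and F7 complex. The median difference over the 28 was -0.23.

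Between the tissues 21 of the 28 passed, 75% of them, where 42.2% of all probes did (18.7% lower and 23.4% higher). Lower in the colon were 14: the factors F5, F10, F12 and KLKB1, the anticoagulants PROC, PROCR, TFPI, SERPIND1 and SERPINA5, PLG, CPB2 and A2M of fibrinolysis, ITGA2B, and VKORC1, which recycles vitamin K. Higher in the colon were 7, among them the plasminogen activators PLAT (2.54) and PLAU (3.05), ANXA2 (2.88), a receptor for PLAT and PLG, F13A1 (1.73), ITGA2 (1.53) and SELP (1.00).

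Cell type markers separated the tissues as labelled. All 11 hepatocyte markers passed as lower in the colon (median -14.20) and all 10 epithelial markers as higher (median 7.32). Of 8 endothelial markers, 6 were lower in the colon (median -1.78), whereas VWF, also a product of endothelial cells, was higher at 1 of its probes and not at the other (-0.17). Endothelial markers summed (brightest PECAM1) to 11.70 to 12.36 on the colonic arrays and 13.31 to 13.61 on the hepatic ones. In Liver_CS and Liver_RPS 6 or 7 of the 10 epithelial markers were detected on an array, and CDX2, KRT20 and SLC26A3 on none.

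The genes whose deviations from the group means followed F2R most closely over the 16 arrays were ATXN7, a subunit of a chromatin complex (r = 0.849), RPP30, a subunit of RNase P (r = 0.827), and FTO, an RNA demethylase (r = 0.810). Those closest to F7 were FTO (r = 0.833) and the respiratory chain genes COX6B (r = 0.817) and NDUFC1 (r = 0.796). FTO thus stood in both lists, at the same probe. Colon_CS replicate 3 was the highest array of its group in both F7 and F2R, and F7 was not detected on the other Colon_CS arrays. The part of that array and of undetected signals in these correlations was not tested. These are the highest of 10177 probes with a gene name that were detected on every array, and the arrays share tissue, slide and normalization, so the values are descriptive.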

How the data were processed

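Total RNA of colonic mucosa and liver was amplified, labelled with Cy3 and hybridised, 1 array per sample. The intensity values deposited per spot were written by Feature Extraction 10.7 (submitters' processing notes). They had the background subtracted and spatial trends removed but were not normalized between arrays. The authors also deposited log2 values, quantile normalized in GeneSpring, which were used as an alternative. The other columns used, the marks for outlier spots and for signal well above background, probe names, descriptions and sequences, come from the same deposited files.

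Spots of the array's own controls were dropped, and spots with an outlier mark counted as missing. The log2 signals then went through quantile normalization within each tissue (8 arrays) for the diets, or over 16 arrays for colon against liver, and spots of a probe were averaged. Probe differences were fitted with limma 3.58.1 in R 4.3.3 (lmFit and eBayes) on all 43603 probes, with Benjamini-Hochberg adjustment over them. The thresholds of the diet contrast are those of the study's methods. No block or covariate was used, and no filter on signal. The colon contrast gave differences and standard errors only. The main probe of a gene was the one with the highest mean signal. All probes of the 10 genes were named in the text, other genes where past the thresholds, at most 3 per list and direction by size, or where stated. The values of 1 listed gene are not reported here. The members, the lists and the markers were chosen with earlier results of these data known. PROCR, TFPI, PROC and F10 in the liver were named after their values were seen.

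Gene names came from the scanner files and the RefSeq table of Sscrofa11.1, used for names and gene order only: the symbol matched for 10083 probes, an older name for 455, a LOC number for 2549 and an accession for 998, and 29518 had no name. Exact and rank tests used scipy 1.17.1 (numpy 2.4.6, pandas 2.3.3), and figures matplotlib 3.10.9. With 4 arrays per group an exact two-sided permutation test cannot give a p under 0.0286. The number of arrays limits the precision. The fits were tested on simulated data, with some probes changed by a known log2 difference. Of 100 probes changed by 1, 80 passed the thresholds in the liver and 56 between the tissues. Of 100 changed by 2, 95 and 86 passed. Of the unchanged probes, 1005 passed in the liver and 9 between the tissues. Tried as alternatives were the 75th percentile for scaling, 16 arrays for the quantiles, normexp correction (offset 50), the log2 values of the authors, no removal of outliers, a filter on background, a trend in eBayes, the methods' t-test, blocks for replicate number and slide, either diet alone, a fold change above 2, and leaving out each array.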

Additional observations from a re-analysis of the deposited data

Results flagged for a closer look

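The mean difference of F7 (log2, RPS minus CS) was 2.33 in the colon and -0.32 in the liver, where it passed neither the fold threshold nor the adjusted test, and the colonic value was 0.32 with normexp correction. The difference between these effects was not tested, since the colonic value chose the gene.

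In 60 groups of 4 arrays the outermost array was compared with the others by Dixon's ratio (gap over range, against its 95% critical value), which chance exceeds in about 1 of 20 groups. In the group Liver_CS, F2R probe A_72_P180436 had 1 array at 9.17, replicate 3, with the others at 7.58 to 7.86 (ratio 0.83, just above that value). F3 probe A_72_P177461 had 1 at 5.41, with the others at 6.06 to 6.16 (0.854), and SERPINC1 probe A_72_P579552 had 1 at 18.42, with the others at 18.49 to 18.50 (0.865). In Liver_RPS, F9 probe A_72_P306238 had 1 at 13.05, with the others at 13.40 to 13.46 (0.848). In Colon_RPS, F9 probe A_72_P467035 had 1 at 6.12, with the others at 0.95 to 1.76 (0.845), and ITGB3 probe A_72_P762355 had 1 at 19.10, with the others at 19.00 (1.000). Those 3 values were tied, as quantile normalization gives to equal ranks, so this ratio says nothing about the array. At the SERPINC1 probe, Liver_CS replicates 1 and 3 were tied as well (18.49), so nothing is read from its ratio either.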

How the results depend on the processing

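The number of coagulation probes past the fold in the colon, 6, was 2 with normexp correction and 3 at a fold above 2, and 4 to 8 when each array was left out in turn. In the liver the 1 call became 2 with scaling to the 75th percentile, with probes well above background only and with an intensity trend, and 0 with the methods' t-test, with the replicate number as a block and at a fold above 2, and 0 to 2 when each array was left out. Between the tissues the 12 calls stayed within 11 to 14 under every alternative. Over all probes, normexp gave 642 probes past the fold in the colon instead of 5550, 220 in the liver instead of 1554, and 10833 between the tissues instead of 18379. A fold above 2 gave 1516 in the colon and 525 in the liver, the filter on background 965 in the liver (of 26463 probes), and the colon without Colon_RPS replicate 2 gave 9148. The causes were not tested.

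The block changed no other call. In the colon it left 6 and in colon against liver, with diet and number as a random block, 12. Deviations of same-numbered arrays (23415 probes) correlated with r between 0.16 and 0.33 for colon and liver with CS, -0.08 and 0.07 with RPS, -0.51 and 0.55 for the diets in the colon and -0.16 and 0.11 in the liver, so the numbers were not taken as pairs between the diets, or between the tissues over both diets. Within CS all 4 colon and liver pairs were above 0.1.

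Of the colonic values past the fold, the sign of F9 probe A_72_P306238 turned, with normexp (-0.00847) and with 1 array left out (-0.0452 to 0.819). Of those under it, scaling to the 75th percentile turned F2 (-0.03), FGA (0.36) and FGG probe A_72_P293239 (0.30), normexp turned FGA (0.06) and ITGB3 probe A_72_P762355 (-0.01), and 1 array left out turned F2 (-0.26 to 0.18), FGG probe A_72_P293239 (-0.05 to 0.10), SERPINC1 probe A_72_P378158 (-0.23 to 0.37), VWF probe A_72_P293294 (-0.0042 to 0.43) and F9 probe A_72_P467035 (-0.88 without Colon_RPS replicate 3, 1.25 without Colon_CS replicate 4). FGG probe A_72_P293239 also turned with quantiles over 16 arrays (0.0018) and the authors' values (9.6e-04). Elsewhere, scaling to the 75th percentile turned FGG probe A_72_P621557 (0.0130) and ITGB3 probe A_72_P762355 (4.76e-05) in the liver, and between the tissues VWF probe A_72_P442685 (0.00763) and ITGB3 probe A_72_P762355 (-0.44, adjusted p = 0.00138). Normexp turned F9 probe A_72_P467035 (-0.0721) and FGG probe A_72_P293239 (-0.0468) in the liver, and VWF probe A_72_P442685 between the tissues (0.00149). The CS arrays alone turned ITGB3 probe A_72_P762355 (-0.00863), and the RPS arrays alone F3 probe A_72_P641835 (-0.20), F2R probe A_72_P180436 (0.0210) and VWF probe A_72_P442685 (0.0430). With 1 array left out the sign turned in the liver for F9 probe A_72_P467035 (-0.0992 to 0.0690), FGG probes A_72_P293239 (-0.15 to 0.22) and A_72_P621557 (-0.32 to 0.11) and ITGB3 probe A_72_P762355 (-0.0487 to 0.0106). Signal over background limits the colonic values of F7, F9, FGA, FGG and 2 SERPINC1 probes.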
